A study of Homo sapiens with 12 samples.

Results

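The untreated baseline of 2 human hepatocellular carcinoma cell lines was compared on Affymetrix Human Genome U133 Plus 2.0 arrays. The members are the 3 Hep3B arrays and the 3 SNU449 arrays labelled 0.1% DMSO, 6 of the 12 arrays of the series, taken by their labels and not by any measured value. The other 6 arrays come from the same lines after DAAD2, a dehydroabietylamine derivative, at 2 μM in Hep3B and 20 μM in SNU449. The labels call Hep3B sensitive and SNU449 resistant to that compound, and this comparison describes how the lines differed in vehicle without it. All 6 control arrays share 72 h in the vehicle DMSO after 24 h of plating, and total RNA was labelled with biotin. Each group is 1 established line, so a difference is one between these lines and not between classes of tumours. The labels describe triplicate samples without naming separate passages, and the p-values measure the spread among these arrays, which may be partly technical.

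The liver cell, or hepatocyte, makes most proteins of blood plasma, packs lipids into lipoproteins, and handles ammonia, bile acids and foreign compounds. A small set of transcription factors, among them CEBPA and the FOXA and GATA families, keeps these genes active. Liver tumour cells can keep that programme, return to a fetal form of it marked by alpha-fetoprotein (AFP) and glypican-3 (GPC3), or lose it and take on mesenchymal features such as vimentin (VIM) filaments, collagen and loss of E-cadherin (CDH1). Hep3B is known as a line that still secretes plasma proteins, and SNU449 as a poorly differentiated one.

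The authors made log2 values with RMA, and the median of each of the 6 arrays was from 3.77 to 3.85. Pearson's r over all probe sets was 0.9888 to 0.9944 between arrays of a line and 0.8902 to 0.898 between arrays of different lines. The excess of the 3′ over the 5′ control probe set of GAPDH, a sign of RNA quality, was 0.453 to 1.514 log2 units on the Hep3B arrays and 0.343 to 0.967 on the SNU449 arrays, and overlapped between the lines. The same excess for ACTB was larger, 1.928 to 2.898 on the Hep3B arrays and 1.824 to 2.763 on the SNU449 arrays, and also overlapped. The part of RNA quality in the results was not tested. The highest GAPDH value was on Hep3B replicate 1 and the highest ACTB value on Hep3B replicate 3. Counts without each array are given further on.

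Differences between the lines were wide. Of 54613 probe sets, 7912 were called higher in Hep3B (14.5%) and 8069 higher in SNU449 (14.8%), where a call is an adjusted p under 0.05 in limma. At a difference of 4-fold or more, which is 2 log2 units, 1222 were called higher in Hep3B and 1229 higher in SNU449, 2.24% and 2.25% of those tested and 4.49% together. The remaining text speaks of genes, each represented by its brightest probe set by mean over the 6 arrays. Of 19775 genes, 4225 were called higher in Hep3B (21.4%) and 3831 higher in SNU449 (19.4%), 40.7% in all, and 52.0% had values that did not overlap between the lines. The 4-fold calls held 773 genes higher in Hep3B (3.91%) and 706 higher in SNU449 (3.57%), together 7.48%. The median difference over all genes was -0.01, and differences are given throughout as Hep3B minus SNU449. The smallest two-sided p that an exact permutation of 6 arrays allows is 0.1, so the calls rest on the spread that limma shares across probe sets.

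Many of the wide differences were between a bright signal in one line and a level in the lower range of the array in the other. Among the 773 genes, 233 had a SNU449 mean below the median of every array, and among the 706 genes, 221 had such a mean in Hep3B. For these genes the size of a difference depends on the background correction, and it is given on the RMA scale only. Past 6 log2 units lay 62 genes higher in Hep3B and 56 higher in SNU449.

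**Figure D1:**
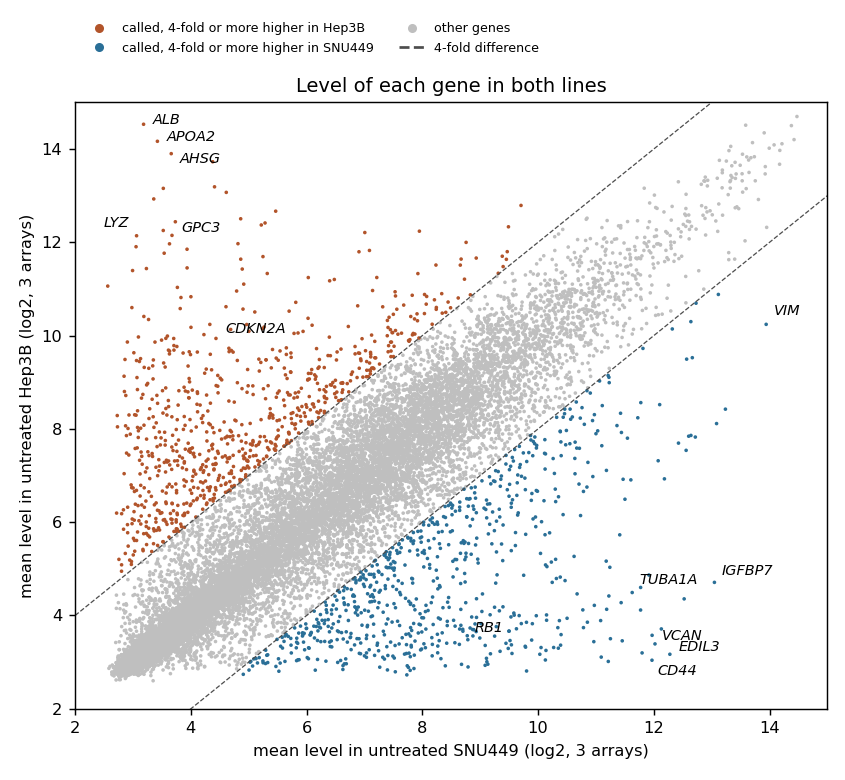
Mean log2 level of each of 19775 genes in untreated SNU449 (x axis) and untreated Hep3B (y axis), 3 arrays each. Brown and blue points are the 773 and 706 genes called at 4-fold or more (dashed lines). ALB, APOA2 and AHSG lie at the upper left, and CD44, EDIL3 and VCAN at the lower right.

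The 25 genes with the widest difference in each direction spanned 7.20 to 11.35 log2 units in favour of Hep3B and 7.0 to 9.11 in favour of SNU449, and in limma their adjusted p was at most 4.74e-08 and 8.7e-08. On the side of Hep3B 13 of the 25 were plasma proteins or apolipoproteins, which are described under those groups. The protease trap A2M (8.71) belongs with them by function but was on no list. The other 6 named here were also on no list. Neurotensin (NTS), a peptide hormone of the gut, was at 12.63, 12.91 and 13.24 in Hep3B and at 3.80, 3.05 and 3.23 in SNU449. The mannosidase MAN1A1 (8.85), histidine ammonia-lyase (HAL, 8.40), the splicing regulator MBNL3 (8.21), chemerin (RARRES2, 7.27) and TMT1A (7.22) were also among the 25.

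On the side of SNU449 12 of the 25 were matrix, mesenchymal, actin, protease or adhesion genes, and 8 were on no list. The ubiquitin ligase RNF182 was at 3.20, 2.98 and 2.87 in Hep3B and at 11.05, 11.22 and 11.37 in SNU449. The gap junction protein GJA1, or connexin 43, was at 3.23, 3.75 and 3.53 in Hep3B and at 11.16, 11.22 and 11.37 in SNU449, a difference of -7.75 ± 0.14 (SE). The membrane protein TM4SF1 (-8.17), the matrix protein ABI3BP (-7.98), the membrane repair protein MYOF (-7.16), CDC42EP3 (-7.08) and the arginine deiminase PADI3 (-7.05) were also among the 25. Of all 50 genes 20 had at least 1 further probe set that was not called, 9 on the side of Hep3B and 11 on the side of SNU449.

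The first markers of the hepatocyte were higher in Hep3B, and the first mesenchymal marker was higher in SNU449. Albumin (ALB), the main plasma protein, was at 14.53, 14.56 and 14.50 on the Hep3B arrays and at 3.30, 3.27 and 2.98 on the SNU449 arrays. The difference of 11.35 ± 0.11 (SE) was the widest of all genes, with an adjusted p of 5.2e-10, and all 4 ALB probe sets were called in this direction. AFP, the albumin-related protein of the fetal liver, was at 8.40, 8.45 and 8.73 in Hep3B and at 4.17, 3.75 and 4.40 in SNU449, a difference of 4.42 ± 0.17 (SE). VIM went the other way, from 10.60, 10.31 and 9.81 in Hep3B to 13.89, 14.03 and 13.90 in SNU449. Its difference was -3.70 ± 0.18 (SE, adjusted p 6.71e-07), and VIM was far above the array medians in Hep3B too.

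The further hepatocyte markers transthyretin (TTR, difference 4.32), APOA1 (6.78) and SERPINA1 (8.78) were called higher in Hep3B. HNF4A, a further planned marker, was not among the 25 measured transcription factors of the hepatocyte, and no value of it is given. Among the further mesenchymal markers, ZEB1 (-4.67), a repressor of E-cadherin, the kinase receptor AXL (-7.52) and the caveolar coat protein CAV1 (-4.97) were called higher in SNU449 with no overlap between the lines. N-cadherin (CDH2) separated the lines least. It was at 7.91, 7.93 and 7.67 in Hep3B and at 8.17, 8.27 and 8.29 in SNU449, a difference of -0.41 ± 0.11 (SE, adjusted p 0.0191). Both lines thus had CDH2 signal. Fibronectin (FN1), a matrix protein often counted as mesenchymal, was called higher in Hep3B (11.56 against 10.75, difference 0.81).

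**Figure D2:**
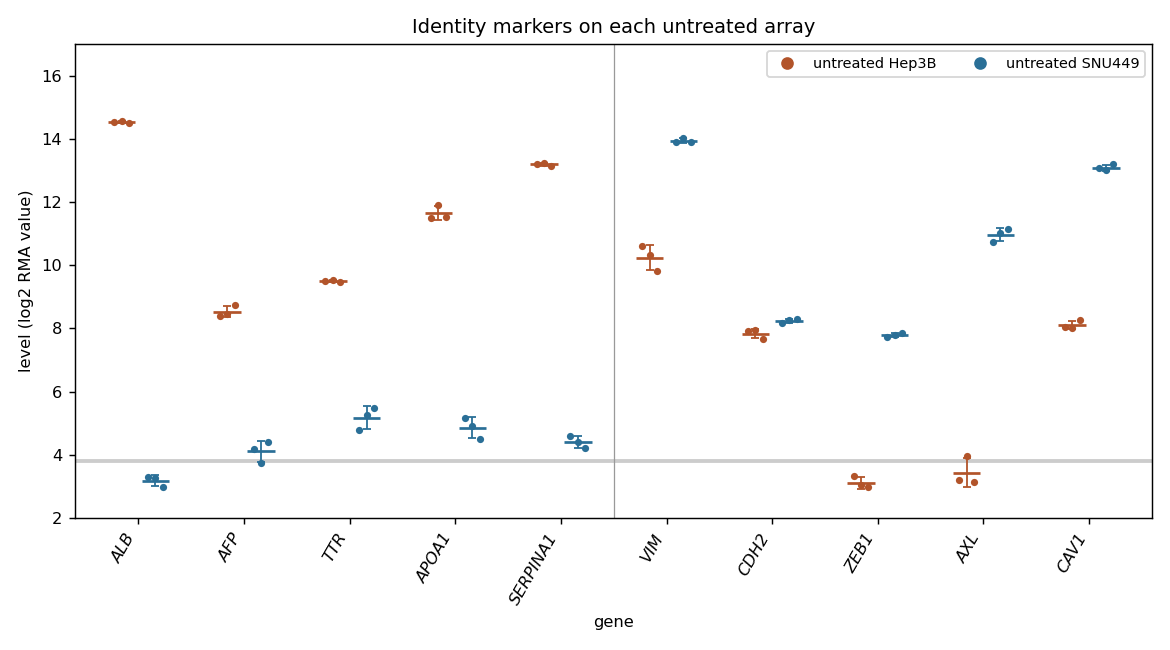
Log2 RMA level (y axis) of 5 hepatocyte markers (left) and 5 mesenchymal markers (right) on each of the 3 untreated arrays per line. Points are arrays, horizontal lines are means, bars are SD, and the grey band spans the 6 array medians. The lines do not overlap for any of these genes, and CDH2 has the narrowest gap.

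Several plasma protein genes are known to be read from short promoters that liver factors bind. The upstream stretches of ALB, AFP, C4BPA, a complement regulator, and the alpha chain of fibrinogen (FGA) are shown because each holds the HNF1 motif GTTAATNAT, and that of fetuin-A (AHSG) because it holds the HNF4 motif CAAAGTCCA. Each is the 250 bases before the annotated gene start, from RefSeq on GRCh38.p14, written 5′ to 3′ on the strand of the gene, with the motif on either strand in capitals.
ALB (chr4:73404037-73404286, plus strand): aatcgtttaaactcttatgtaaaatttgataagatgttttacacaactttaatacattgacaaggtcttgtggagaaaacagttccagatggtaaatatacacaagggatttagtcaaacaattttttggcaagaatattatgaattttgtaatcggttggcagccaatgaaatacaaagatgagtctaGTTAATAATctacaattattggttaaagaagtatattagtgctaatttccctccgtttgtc
AFP (chr4:73435971-73436220, plus strand): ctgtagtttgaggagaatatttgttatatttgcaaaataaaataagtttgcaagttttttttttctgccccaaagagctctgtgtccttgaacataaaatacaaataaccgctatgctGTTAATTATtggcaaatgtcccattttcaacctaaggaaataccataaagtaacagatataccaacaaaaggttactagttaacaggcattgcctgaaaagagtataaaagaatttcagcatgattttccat
C4BPA (chr1:207103983-207104232, plus strand): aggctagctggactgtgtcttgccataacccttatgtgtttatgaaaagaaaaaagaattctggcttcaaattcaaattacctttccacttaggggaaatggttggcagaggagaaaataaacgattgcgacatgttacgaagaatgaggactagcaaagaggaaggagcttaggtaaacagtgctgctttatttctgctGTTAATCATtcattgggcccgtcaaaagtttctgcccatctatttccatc
FGA (chr4:154590743-154590992, minus strand): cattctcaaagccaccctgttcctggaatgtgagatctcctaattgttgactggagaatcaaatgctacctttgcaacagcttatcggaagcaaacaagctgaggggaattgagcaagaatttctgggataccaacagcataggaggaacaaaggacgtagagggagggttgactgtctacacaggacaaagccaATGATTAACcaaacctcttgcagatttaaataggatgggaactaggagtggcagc
AHSG (chr3:186612810-186613059, plus strand): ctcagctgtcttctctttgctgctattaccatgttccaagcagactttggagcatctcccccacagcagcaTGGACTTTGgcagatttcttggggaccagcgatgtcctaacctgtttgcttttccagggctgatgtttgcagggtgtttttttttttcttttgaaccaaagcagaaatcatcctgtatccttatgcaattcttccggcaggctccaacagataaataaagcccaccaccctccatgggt
The motif lay 61 to 53 bases before the start in ALB, 132 to 124 in AFP, 50 to 42 in C4BPA, 55 to 47 in FGA and 179 to 171 in AHSG, where FGA and AHSG hold it on the opposite strand. The first 2 stretches are neighbours on chromosome 4, where the albumin gene family is clustered.

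Of the 4-fold genes, 595 higher in Hep3B and 557 higher in SNU449 had a promoter in the table, among 27305 promoters in all. HNF1 letters stood in 11 of the 595 (1.85%), 6 of the 557 (1.08%) and 0.678% of all promoters. The 11 included ALB, C4BPA, AFP, FGA, NPC1L1 and MYCN. HNF4 letters stood in 5 of the 595 (0.84%), in 0 of the 557 and in 0.293% of all. Among the 15384 promoters of genes compared on the arrays the shares were 0.468% for HNF1 and 0.267% for HNF4. The FOXA motif TGTTTAC was in 2.69% of the Hep3B set and 2.33% of the SNU449 set, against 2.25% of genes compared and 2.98% of all promoters. The C/EBP motif TTGCNNAA was in 7.39%, 8.44%, 7.2% and 9.13% of the same sets, and the nuclear receptor hexamer AGGTCA in 10.8%, 8.44%, 10.1% and 12.1%. Of the motifs known from mesenchymal and growth genes, the AP-1 motif TGAGTCA was in 2.18%, 3.41%, 3.18% and 4.16%, and the TEAD motif GGAATG in 10.6%, 10.4%, 10.3% and 11.9%. For each of these 5 motifs at least 1 set lay above the share of genes compared and below that of all promoters. All were searched on both strands in the 250 bases, and none of these letter strings contains another. These shares are descriptions, no test was made, and most genes of either set hold neither liver motif in this window.

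Plasma proteins formed a broad block of higher signal in Hep3B. Of 52 measured, 40 were called higher in Hep3B and 1 higher in SNU449, 76.9% and 1.92% against 21.4% and 19.4% of all genes, with a median difference of 2.52, and 28 passed 4-fold in Hep3B. The shares given for the lists that follow, first Hep3B and then SNU449, stand against the same 21.4% and 19.4%. AHSG, an inhibitor of calcification, was at 13.85, 13.94 and 13.92 in Hep3B and at 4.19, 3.61 and 3.19 in SNU449, a difference of 10.24 ± 0.22 (SE). Retinol-binding RBP4 (9.63), transferrin (TF, 9.35), the protease inhibitors SERPINA1 (8.78) and ITIH2 (7.92), the acute phase protein ORM1 (7.52) and angiotensinogen (AGT, 7.20) followed. Plasminogen (PLG, -0.23), ITIH4 (-0.08) and HRG (0.03), which had low values in both lines, were not called.

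The exception was in fibrinogen, the clotting protein built of 3 chains whose genes lie side by side. FGA was at 7.95, 8.42 and 8.14 in Hep3B and at 5.11, 4.54 and 4.69 in SNU449, a difference of 3.39 ± 0.17 (SE). FGB, the beta chain, was at 6.11, 6.06 and 5.86 in Hep3B and at 10.48, 9.97 and 9.73 in SNU449, a difference of -4.05 ± 0.18 (SE, adjusted p 3.76e-07), called on 2 of 2 probe sets. FGG, the gamma chain, was at 7.50, 7.49 and 7.01 in Hep3B and at 8.22, 7.51 and 7.21 in SNU449, which overlapped (-0.31, adjusted p 0.426). The alpha chain was thus higher in Hep3B and the beta chain higher in SNU449, and FGB was the only member of the plasma protein list called in that direction.

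Apolipoproteins and lipid export genes differed in 1 direction. Of 21 measured, 16 were called higher in Hep3B, 13 of them at 4-fold or more, and 0 higher in SNU449 (76.2% and 0.0%), with a median of 3.96. APOA2, a protein of high density lipoprotein, was at 14.23, 14.16 and 14.11 in Hep3B and at 3.29, 3.76 and 3.21 in SNU449, a difference of 10.74 ± 0.15 (SE). APOB, the backbone of very low density lipoprotein, differed by 8.73, APOH by 8.46, the lipase regulator ANGPTL8 by 8.23, APOC1 by 7.64, APOC3 by 6.76 and APOE by 5.22. LCAT (-0.35), LPA (0.05), APOC2 (0.20) and APOA4 (0.33), which had low values in both lines, were not called.

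Transcription factors of the hepatocyte were also mostly higher in Hep3B. Of 25 measured, 18 were called higher in Hep3B and 4 higher in SNU449 (72.0% and 16%), with a median of 1.99. CEBPA, which drives albumin and other liver genes, was at 11.77, 12.16 and 11.98 in Hep3B and at 4.83, 4.72 and 4.89 in SNU449, a difference of 7.16 ± 0.12 (SE). The forkhead factors FOXA3 (5.30) and FOXA1 (4.04), the bile acid-induced repressor NR0B2 (4.92), PROX1 (4.54), GATA6 (4.51), HNF4G (3.35) and GATA4 (3.12) were also called. The C/EBP family was divided, since CEBPD (-2.79) and CEBPB (-0.46), factors of the acute phase response, were called higher in SNU449, together with NR2F1 (-1.0) and ATF5 (-0.90). CEBPB lost its call without 5 of the 6 arrays taken singly, with an adjusted p of 0.11 when Hep3B replicate 3 was left out and 0.13 when SNU449 replicate 1 was left out.

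Oncofetal and progenitor genes were mostly, but not all, on the side of Hep3B, with 14 of 23 called higher there, 4 higher in SNU449 (60.9% and 17.4%) and a median of 1.01. GPC3, a heparan sulfate proteoglycan of fetal liver and liver cancer, was at 12.12, 12.03 and 12.29 in Hep3B and at 3.98, 3.48 and 3.56 in SNU449. EPCAM, an adhesion protein of epithelial progenitors, was at 11.98, 11.93 and 11.99 against 3.70, 3.52 and 3.68. These differences were 8.47 and 8.34, and PROM1 (6.63), the bile duct keratin KRT19 (6.03), the let-7 inhibitor LIN28B (5.72) and the imprinted growth regulator DLK1 (5.07) followed. The stem cell marker CD44, a hyaluronan receptor, was instead at 2.96, 3.08 and 3.08 in Hep3B and at 11.87, 11.91 and 12.12 in SNU449, a difference of -8.93 ± 0.10 (SE). Of 13 CD44 probe sets, 9 were called higher in SNU449 and 1 higher in Hep3B. KRT7 (-6.65), SOX9 (-0.88) and CD24 (-0.75) were also called higher in SNU449. HMGA2 (-0.12), SALL4 (0.08) and, at low values in both lines, LGR5 (-0.24) were not called.

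Metabolic functions of the liver were only partly higher in Hep3B. In drug metabolism 18 of 47 genes were called higher in Hep3B and 6 higher in SNU449 (38.3% and 12.8%), with a median of 0.11. The glucuronyl transferase UGT2B4 was at 11.25, 10.94 and 10.99 in Hep3B and at 2.21, 2.55 and 2.93 in SNU449, and the sulfotransferases SULT1A1 (5.67) and SULT2A1 (5.51), the monooxygenase FMO5 (4.26) and POR (3.48), the electron donor of all microsomal cytochromes P450, were called with it. P450 genes that went the other way were CYP1B1 (-4.53), the vitamin D hydroxylase CYP24A1 (-4.17), CYP3A5 (-2.35) and, at low values in both lines, CYP2B6 (-0.52), whose call was lost without Hep3B replicate 3 (adjusted p 0.0754) and without SNU449 replicate 2 or 3 (0.0751 and 0.0887). The liver enzymes CYP2D6 (0.11), CYP2A6 (0.26) and CYP1A2 (-0.04) were not called. These families share sequence, and the probe sets may not tell their members apart.

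Among bile acid genes and liver transporters 12 of 29 were called higher in Hep3B and 5 higher in SNU449 (41.4% and 17.2%, median 0.08), led by the steroid dehydrogenase HSD17B2 (4.38) and the anion transporter SLC22A9 (3.80). ABCC2 (-2.46), the export pump of the bile canaliculus, was higher in SNU449. The bile acid importer SLC10A1 (-0.16), which had low values in both lines, was not called. In the urea cycle, amino acid and glucose list 21 of 40 were called higher in Hep3B and 4 higher in SNU449 (52.5% and 10.0%, median 0.43). Argininosuccinate synthase (ASS1) was at 11.29, 11.38 and 10.64 in Hep3B and at 4.92, 4.64 and 5.18 in SNU449, a difference of 6.19 ± 0.21 (SE). The tyrosine catabolic enzyme HGD (6.01) and arginase (ARG1, 4.15) were on the same side, whereas CPS1, the entry enzyme of the urea cycle, was higher in SNU449 by a small margin (-0.88, adjusted p 0.000124).

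Isozymes of the first steps of glucose breakdown were called in opposite directions or together, depending on the step. Hexokinase HK2 was at 8.79, 8.90 and 8.95 in Hep3B and at 3.74, 3.56 and 3.40 in SNU449, and HK1 at 5.12, 4.87 and 4.71 in Hep3B and at 8.43, 8.83 and 8.93 in SNU449. Their differences were 5.31 ± 0.11 and -3.83 ± 0.16 (SE). For phosphofructokinase, which commits glucose to glycolysis, all 3 subunit genes were called higher in SNU449, the platelet form PFKP by -7.65, the muscle form PFKM by -2.50 and the liver form PFKL by -1.01. PFKP was at 4.04, 3.98 and 4.33 in Hep3B and at 11.75, 11.76 and 11.80 in SNU449. The isozyme list as a whole was balanced, with 19 of 48 called higher in Hep3B and 17 higher in SNU449 (39.6% and 35.4%) and a median of 0.09. Other members higher in Hep3B were the fatty acid binding proteins FABP5 (5.31) and FABP1 (4.32), ACSL1 (4.91), GLUL (4.29) and ASNS (4.20). Others higher in SNU449 were ENO2 (-3.41) and TPM1 (-3.07), a tropomyosin on the list that is not an enzyme.

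Sterol and fatty acid synthesis was higher in Hep3B, with 30 of 42 genes called there, 4 called higher in SNU449 (71.4% and 9.52%) and a median of 1.16. HMGCS1, an early enzyme of cholesterol synthesis, was at 10.45, 10.57 and 10.55 in Hep3B and at 5.61, 5.60 and 5.89 in SNU449. The glycerol phosphate acyltransferase GPAM differed by 6.38, the sterol oxidase MSMO1 by 4.74, TM7SF2 by 3.90, HSD17B7 by 3.47 and fatty acid synthase (FASN) by 3.40. Stearoyl-CoA desaturases, which make monounsaturated fatty acids, were divided. SCD was called higher in Hep3B (1.27), and SCD5 was at 2.87, 3.56 and 3.45 in Hep3B and at 9.71, 9.30 and 9.45 in SNU449 (-6.19 ± 0.19, SE). ELOVL7 (-1.06), FADS2 (-0.68) and ELOVL5 (-0.66) were also called higher in SNU449.

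**Figure D3:**
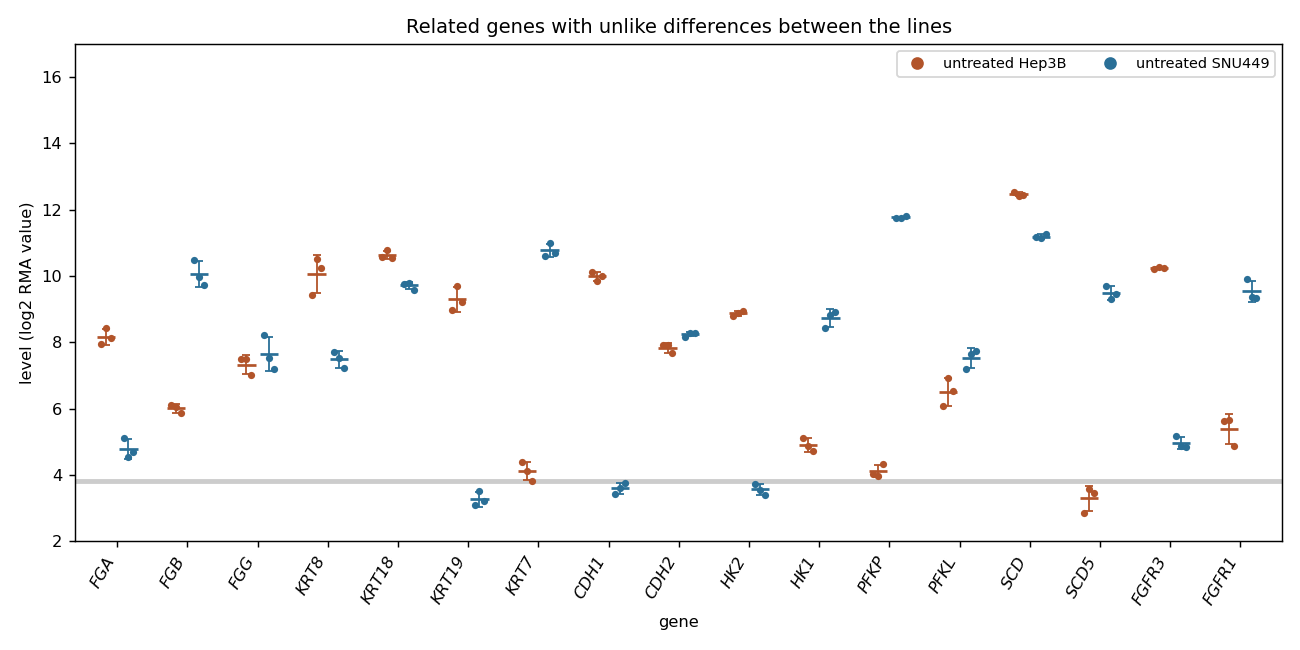
Log2 RMA level (y axis) of related genes on each of the 3 untreated arrays per line, with means, SD bars and the band of the 6 array medians in grey. FGA and FGB, KRT19 and KRT7, HK2 and HK1, SCD and SCD5, and FGFR3 and FGFR1 differ in opposite directions, and FGG overlaps.

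Epithelial genes lay with Hep3B, with 37 of 64 called higher there, 12 called higher in SNU449 (57.8% and 18.8%) and a median of 0.85. CDH1, the adhesion protein of epithelial junctions, was at 10.13, 9.85 and 10.00 in Hep3B and at 3.42, 3.60 and 3.76 in SNU449, a difference of 6.40 ± 0.12 (SE). MAL2 (7.62), villin (VIL1, 6.37), the splicing factor ESRP1 (5.31) and ERBB3 (5.26) were called with it, although 1 of 5 ERBB3 probe sets was called the other way. Keratins, the filaments of epithelia, did not move as a block. KRT19 was at 8.98, 9.71 and 9.21 in Hep3B and at 3.08, 3.53 and 3.21 in SNU449, and KRT7 at 4.12 ± 0.28 in Hep3B and 10.77 ± 0.20 in SNU449 (SD, n = 3). The hepatocyte keratins KRT8 (2.58) and KRT18 (0.92) were higher in Hep3B and KRT80 (-4.24) higher in SNU449. SNU449 also had higher DSC2 (-3.76) and CLDN2 (-3.53), and CLDN1 (-0.20) was not called.

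Mesenchymal genes were mostly higher in SNU449, where 38 of 66 were called, with 11 called higher in Hep3B (16.7% in Hep3B, 57.6% in SNU449) and a median of -1.42. Beside CD44 and AXL these included the protease inhibitor SERPINE2 (-8.42), ANXA1 (-8.0), the collagen cross-linker LOXL2 (-7.04), FSTL1 (-7.0), GNG11 (-6.89) and the myosin kinase MYLK (-6.21). Members called the other way were SOX2 (3.66), BGN (2.93), EFEMP2 (2.42) and FBLN1 (2.04). ENG (0.09), DCN (-0.20) and S100A4 (0.31) were not called.

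In the matrix list 26 of 53 were called higher in SNU449 and 6 higher in Hep3B (11.3% in Hep3B, 49.1% in SNU449), with a median of -0.39. Versican (VCAN), a large matrix proteoglycan, was at 3.62, 3.39 and 3.16 in Hep3B and at 12.23, 11.84 and 11.99 in SNU449, and 5 of 5 probe sets were called. The collagen chain COL6A3 was at 3.17, 3.02 and 3.40 against 12.01, 11.59 and 11.79. Their differences were -8.63 ± 0.15 and -8.60 ± 0.14 (SE), followed by COL1A2 (-7.19), P3H2 (-6.21), COL13A1 (-6.11) and COL4A5 (-6.0). Collagen I is built of both COL1A1 and COL1A2, and COL1A1 differed by -1.16 ± 0.21 (SE, adjusted p 0.0024), with 1 of 5 probe sets called. MFAP2 (3.57), NID1 (2.70), COL27A1 (2.54) and the collagen chaperone SERPINH1 (2.27) were higher in Hep3B, and COL6A1 (0.07) and HSPG2 (-0.16) were not called.

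The widest difference in favour of SNU449 was that of EDIL3, a secreted integrin ligand, at 2.91, 3.40 and 3.20 in Hep3B and at 12.19, 12.25 and 12.40 in SNU449 (-9.11 ± 0.14, SE). Integrins and adhesion receptors were called higher in SNU449 in 21 of 52 cases and higher in Hep3B in 14 (26.9% in Hep3B, 40.4% in SNU449), with a median of -0.24. CADM1 (-7.05), the laminin receptor ITGA3 (-5.91) and the tetraspanin CD9 (-3.64) were among the former and ROBO1 (4.92) and GPC6 (3.27) among the latter. Proteases and their inhibitors were balanced, with 14 of 48 called higher in Hep3B and 15 higher in SNU449 (29.2% and 31.2%, median -0.06). Urokinase (PLAU, -5.56), TIMP1 (-5.10), TFPI2 (-5.01) and PRSS23 (-7.05) were higher in SNU449, and the membrane peptidases MEP1A (5.53), DPP4 (4.73) and ANPEP (3.74) were higher in Hep3B.

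Genes of the actin cytoskeleton were called higher in SNU449 in 35 of 54 cases and higher in Hep3B in 6 (11.1% in Hep3B, 64.8% in SNU449), with a median of -0.69. TGFB1I1 (-7.03), SVIL (-6.04), FHL2 (-5.67), TAGLN (-5.53), MYL9 (-5.04) and the non-muscle myosin MYH9 (-4.89) led this group. VIL1, a bundler of microvillar actin, was the widest exception (6.37). Targets of YAP and TEAD, which report cell spreading and tension, had the lowest median of all lists, -1.86, with 21 of 29 called higher in SNU449 (72.4% against 19.4% of all genes) and 2 higher in Hep3B. Among them were FJX1 (-5.58), CRIM1 (-5.52), ANKRD1 (-4.83), AMOTL2 (-4.43), CCN1 (-3.58) and the coactivator WWTR1 (-3.46), which was at 7.65, 7.54 and 7.73 in Hep3B and at 11.11, 11.03 and 11.16 in SNU449. GADD45A (0.55) and NT5E (0.32) were the members called higher in Hep3B. NT5E lost that call when SNU449 replicate 1 was left out (adjusted p 0.109) and in other alternatives, and 3 of its 4 probe sets were called higher in SNU449.

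**Figure D4:**
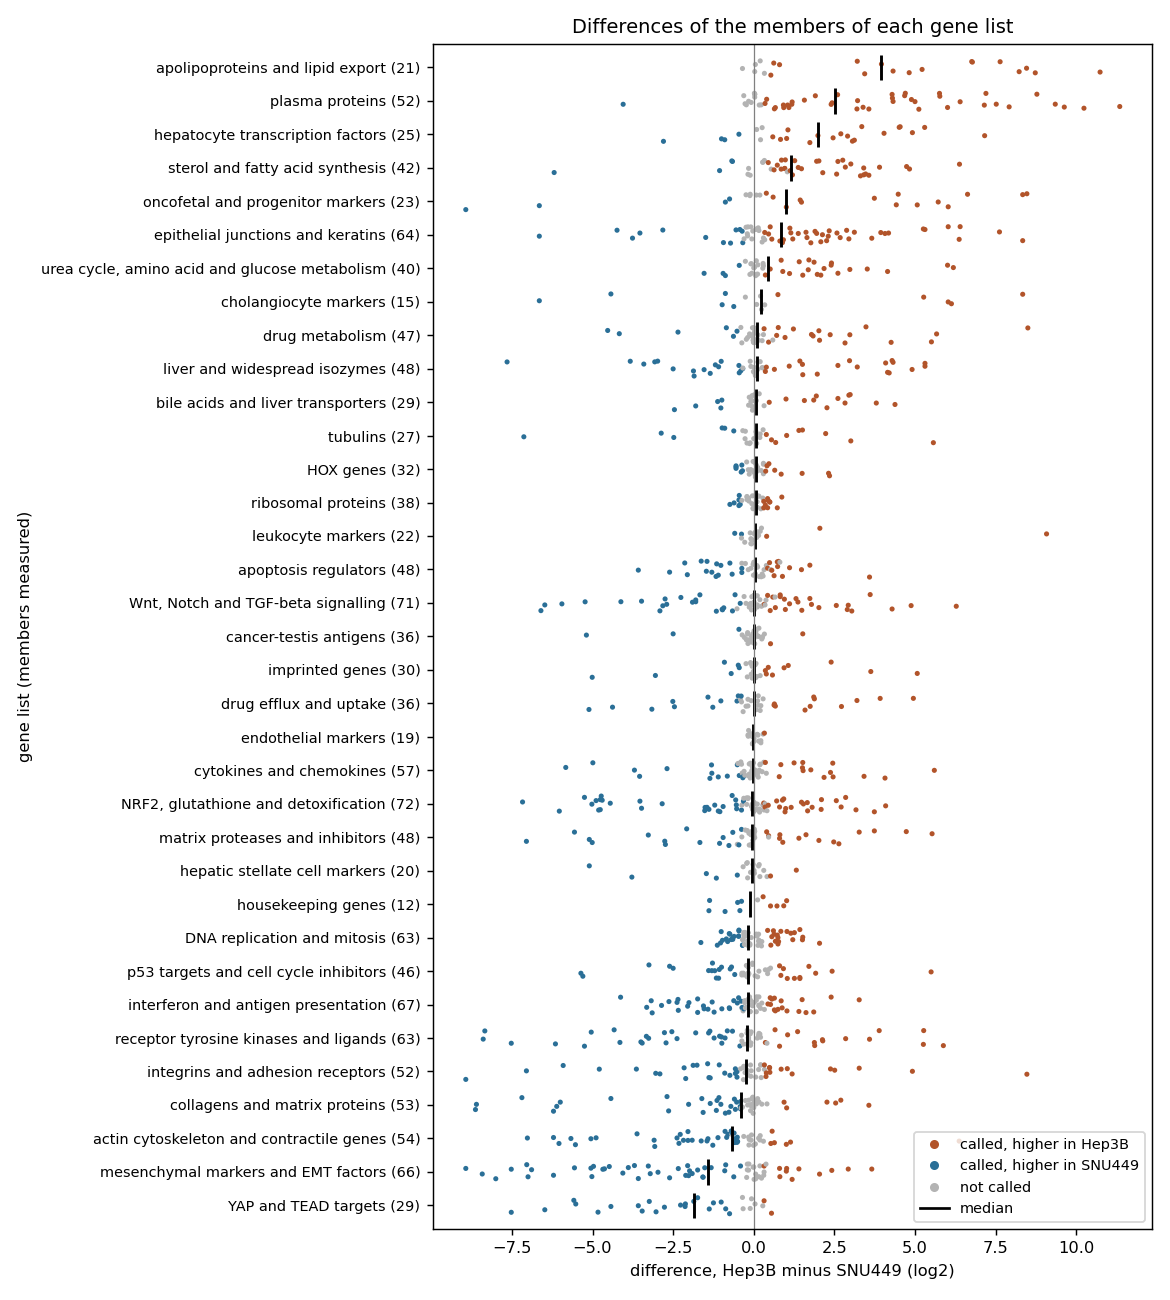
Difference in log2 level, Hep3B minus SNU449 (x axis), of each measured member of 35 gene lists (y axis, members in brackets), ordered by median (black line). Brown and blue points are members called higher in Hep3B and in SNU449, and grey points were not called. Medians run from 3.96 for apolipoproteins to -1.86 for YAP and TEAD targets.

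Growth factor systems differed by member. Of 63 receptor tyrosine kinase genes and ligands, 27 were called higher in SNU449 and 15 higher in Hep3B (23.8% in Hep3B, 42.9% in SNU449), with a median of -0.21. The IGF-binding proteins IGFBP5 (-8.39) and IGFBP7 (-8.34), FGF2 (-6.15) and the ERBB ligand NRG1 (-5.25) were higher in SNU449, while its receptor ERBB3 (5.26) was higher in Hep3B. FGF receptors were divided. FGFR3 was at 10.21, 10.26 and 10.23 in Hep3B and at 5.17, 4.89 and 4.84 in SNU449, and FGFR1 at 5.63, 5.67 and 4.88 in Hep3B and at 9.91, 9.37 and 9.34 in SNU449. FGFR2 (3.89), FGFR4 (1.89) and the co-receptor KLB (5.88), which the bile acid hormone FGF19 needs on hepatocytes, were higher in Hep3B. ERBB2 (-0.32), HGF (-0.22) and RET (-0.16) were not called.

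Wnt, Notch and TGF-beta genes were balanced, with 24 of 71 called higher in Hep3B, 22 higher in SNU449 (33.8% and 31.0%) and a median of 0.02. The Wnt antagonist SFRP1 (-6.60), TGFB2 (-6.48), WNT5B (-5.95) and NOTCH2 (-5.23) were higher in SNU449, and the activin subunit INHBE (6.28) and ID4 (4.88) higher in Hep3B. DKK1 (-0.07) and TGFBR1 (0.01) were not called. In the cytokine list 15 of 57 were called higher in Hep3B and 14 higher in SNU449 (26.3% and 24.6%, median -0.01). The widest differences were those of chemokines, CCL20 at 9.48, 9.54 and 9.75 in Hep3B and 3.48, 4.56 and 3.95 in SNU449, and CCL2 at 3.69, 3.83 and 3.46 in Hep3B and 9.67, 9.48 and 9.33 in SNU449. OSMR (-4.99), IL18 (-3.70) and LIF (-3.54) were higher in SNU449 and the receptor IL1R1 (4.07) higher in Hep3B.

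Interferon and antigen presentation genes were called higher in SNU449 in 27 of 67 cases and higher in Hep3B in 17 (25.4% in Hep3B, 40.3% in SNU449), with a median of -0.18. IFIT5 (-4.13), GBP3 (-3.32), IFIT3 (-3.18) and OAS1 (-3.15) were higher in SNU449, while the ubiquitin-like ISG15 (3.27) and CD74 (2.40) were higher in Hep3B. HLA-E (0.09) and IFITM3 (0.08) were not called.

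Cell division genes had few wide differences. Among 63 genes of DNA replication and mitosis 19 were called in each direction (30.2%, against 21.4% and 19.4% of all genes), 1 at 4-fold or more in Hep3B and 0 in SNU449, with a median of -0.17. The range ran from thymidylate synthase (TYMS, -1.64) to the single-strand binding subunit RPA3 (2.04), with AURKB (1.43), BUB1 (1.51) and CDC25C (1.52) higher in Hep3B, and CDK1 (0.15) and TPX2 (0.18) not called. Wider differences stood among the restraints on the cycle. Of 46 p53 targets and cell cycle inhibitors 16 were called higher in SNU449 and 11 higher in Hep3B (23.9% in Hep3B, near the 21.4% of all genes, and 34.8% in SNU449, median -0.18).

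The retinoblastoma gene RB1, which holds cells before S phase and is known to be lost in Hep3B, was at 3.65, 3.35 and 3.44 in Hep3B and at 8.73, 8.65 and 8.98 in SNU449 (-5.30 ± 0.12, SE). CDKN2A, the inhibitor of CDK4 and CDK6 that acts through RB1, was the reverse, at 9.90, 9.90 and 10.01 in Hep3B and at 4.44, 4.11 and 4.76 in SNU449 (5.50 ± 0.16, SE), with 3 of 3 probe sets called. On the same axis, cyclin D1 (CCND1, -3.25) and CDK6 (-2.50) were higher in SNU449, CDK4 (0.46) was not called, and CDKN1A (1.71) was higher in Hep3B. The stress kinase PLK2 (-5.36) and the death inducer PMAIP1 (-2.61) were higher in SNU449.

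The tubulins, from which microtubules are built, had 9 of 27 list members called higher in Hep3B and 6 higher in SNU449 (33.3% and 22.2%, median 0.07). TUBA1A, an alpha-tubulin that is prominent in neurons, was at 4.46, 4.59 and 4.43 in Hep3B and at 11.53, 11.60 and 11.75 in SNU449, a difference of -7.13 ± 0.10 (SE, adjusted p 7.56e-10) on its 1 probe set. The widely expressed isotypes TUBA1B (-0.26), TUBA1C (-0.27) and TUBB (-0.13) were not called. TUBB3, a mainly neuronal isotype, was not called either (-0.11 ± 0.12, SE) and was bright in both lines. TUBB6 (-2.87) was higher in SNU449, and TUBB2B (3.01), TUBE1 (2.23) and the microtubule-binding protein MAP7 were higher in Hep3B. MAP7 was at 8.77, 8.69 and 8.75 in Hep3B and at 3.45, 2.97 and 3.10 in SNU449. Tubulin genes share long stretches of sequence, so signal may be shared between their probe sets.

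Genes of drug efflux and uptake were balanced as a list, with 11 of 36 called in each direction (30.6%) and a median of 0.00. The multidrug pump ABCB1 was at 5.05, 4.72 and 5.38 in Hep3B and at 10.31, 10.07 and 10.07 in SNU449 (-5.11 ± 0.17, SE), called on 2 of 2 probe sets. ABCC4 (-2.51), ABCC1 (-1.42) and the major vault protein MVP (-3.16) were on the same side, and ABCG2 (2.72), SLC47A1 (3.20), the nucleoside carrier SLC29A2 (3.92) and SLCO4C1 (4.95) on the side of Hep3B.

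Redox and detoxification genes had 23 of 72 called higher in Hep3B and 28 higher in SNU449 (31.9% and 38.9%, median -0.04), and their members fell into families. The aldo-keto reductases AKR1C3 (-7.17) and AKR1C1 (-4.76), the metallothioneins MT1E (-5.25), MT1X (-5.02), MT1H (-4.89) and MT2A (-4.81), the quinone reductase NQO1 (-4.76) and GPX8 (-6.03) were higher in SNU449. The AKR1C and metallothionein genes are near-identical within each family, and signal may be shared between their probes. NQO1 was at 7.22, 7.38 and 7.35 in Hep3B and at 12.15, 12.07 and 12.01 in SNU449. Catalase (CAT, 2.85), plasma glutathione peroxidase GPX3 (4.09), GSTT1 (3.74) and GSTO2 (3.17) were higher in Hep3B, and NFE2L2 itself, which encodes NRF2, was not called (0.28).

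Of 48 apoptosis regulators 12 were called higher in Hep3B and 16 higher in SNU449 (25% and 33.3%), with a median of 0.03, and 1 and 4 of them passed 4-fold, against 3.91% and 3.57% of all genes. The inflammatory caspase CASP4 (3.60) and the adaptor FADD (1.74) were higher in Hep3B, and the mitophagy receptor BNIP3L (-3.58), BOK (-2.14) and the survival protein BCL2L1 (-1.02) were higher in SNU449. MCL1 (0.09), BIRC5 (-0.17), CASP6 (-0.01) and BAX (0.52) were not called. BAX varied widely within each line, from 7.12 to 8.0 in Hep3B and from 6.67 to 7.40 in SNU449.

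**Figure D5:**
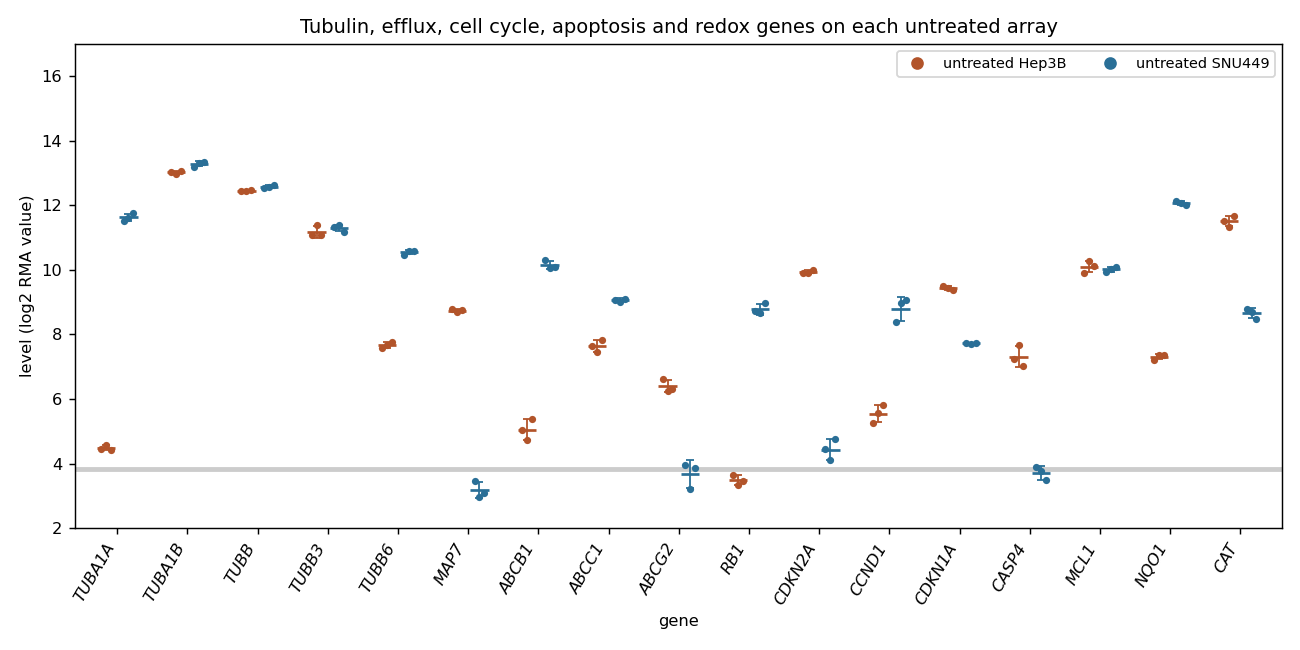
Log2 RMA level (y axis) of tubulin, efflux, cell cycle, apoptosis and redox genes on each of the 3 untreated arrays per line, with means, SD bars and the band of the 6 array medians in grey. TUBA1A, ABCB1, RB1 and NQO1 are higher in SNU449, MAP7, CDKN2A and CAT are higher in Hep3B, and TUBB3 and MCL1 overlap.

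Markers of other cell types were in the lower range of the array in some cases and bright in others. Of 76, 30 had means below every array median in both lines. Their part in the differences was not tested. Of 22 leukocyte markers, 13 had such means, 3 were called higher in Hep3B and 2 higher in SNU449 (median 0.03). These were 13.6% and 9.09%, against 21.4% and 19.4% of all genes. Lysozyme (LYZ) was at 11.98, 12.15 and 12.29 in Hep3B and at 3.17, 3.00 and 3.02 in SNU449. The lipopolysaccharide co-receptor CD14, which hepatocytes are known to make too, was at 5.45, 5.42 and 5.24 in Hep3B and at 3.28, 3.21 and 3.49 in SNU449. CD3D, ITGAM and ITGAX were not called. The summed linear signal of the leukocyte list was 4414 to 5380 on the Hep3B arrays and 353 to 389 on the SNU449 arrays. Without LYZ it was 371 to 420 and 345 to 380, so that LYZ carried nearly the whole gap. Endothelial markers summed to 293 to 307 and 286 to 302, with 1 of 19 called, higher in Hep3B (5.26%), and a median of -0.01. Stellate cell markers summed to 796 to 901 in Hep3B and 2010 to 2468 in SNU449. Without TIMP1 the sums were 752 to 871 and 845 to 1062. Of 20 stellate cell markers 2 were called higher in Hep3B and 5 higher in SNU449 (10.0% and 25%, median -0.06). TIMP1 (-5.10) and RGS5 (-3.78) led these, PDGFRB, DES and DCN were not called, and ACTA2 (-0.51) was dim in both lines. Cholangiocyte markers were split, with 5 of 15 called in each direction (33.3%, median 0.21), and 2 lay below every array median in both lines. EPCAM (8.34), KRT23 (6.13), KRT19 (6.03) and DEFB1 (5.27) were higher in Hep3B, and KRT7 (-6.65), osteopontin (SPP1, -4.43) and AQP1 (-0.98) higher in SNU449.

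The same contrast between the lines was fitted on the 6 arrays after DAAD2, which were given at 2 μM in Hep3B and 20 μM in SNU449 and share no array with the controls. It called 8390 probe sets higher in Hep3B (15.4%) and 7011 higher in SNU449 (12.8%). At 4-fold or more 1282 (2.35%) and 1103 (2.02%) were called. Of the 1222 untreated 4-fold probe sets higher in Hep3B, 1028 were also among the treated ones, 84.1% of the untreated and 80.2% of the treated list. Of the 1229 higher in SNU449, 955 were shared, 77.7% of the untreated and 86.6% of the treated list. None of the untreated 4-fold probe sets had the opposite sign after DAAD2 (0 and 0). Of the 25 genes with the widest difference in each direction, 25 and 25 were called the same way after DAAD2. Single members stood at other values, given side by side because the doses differ. TUBA1A was at -7.13 untreated and -4.38 treated, CCND1 at -3.25 and -1.15, and FGG at -0.31 and -2.93. ALB was at 11.35 and 11.20.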

How the data were processed

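Total RNA of untreated Hep3B and SNU449 (0.1% DMSO, 72 h, 3 arrays each) was hybridised to U133 Plus 2.0 arrays from Affymetrix. The authors deposited log2 levels per probe set, made with RMA per the labels (background correction, quantile normalization, summary per probe set), and their methods name BRB Array Tools. No version of RMA is given in the sources used here. Quantile normalization sets every array to nearly the same distribution, so a level is relative to the other genes of that array and RNA per cell is not measured. Of the columns, 0 were left unused. From 54675 probe sets 62 controls were left out, with no filter on low values. Of the 54613, 41091 carry 1 gene symbol in the platform annotation, 1801 several and 11721 none, and only those with 1 symbol were named.

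The lines were compared two-sided with limma 3.58.1 in R 4.3.3 on the 6 arrays, with Benjamini-Hochberg adjustment across the 54613 (call: adjusted p under 0.05). In simulated data 200 of 54613 probe sets were changed, with independent normal noise. Of changes of 1 log2 unit 71% were recovered and of those of 2 log2 units 95%, with 11 false calls. In the real comparison 29.3% of probe sets were called, so these rates need not hold there. Named were ALB, AFP and VIM with 7 further lineage markers, and HNF4A, planned as well, has no value here. The 25 widest genes per direction without overlap were named too. Of each of 35 lists up to 8 widest, 4 opposite and 4 uncalled members were named, or a whole family. FASN, ABCC1, BCL2L1, FN1, C4BPA and the promoters shown were chosen after their values were seen. The members and lists were chosen with earlier results of these data known, and lists were described without a test. The labels number the replicates without saying whether equal numbers share a batch, and no block was used in the main fit. The limits of precision come from the 3 arrays per line. Summaries used pandas 2.3.3 and numpy 2.4.6 in Python 3.11.15, and plots matplotlib 3.10.9.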

Additional observations from a re-analysis of the deposited data

How the results depend on the processing

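Counts of called probe sets in the untreated arrays stayed within 1.5 times under all 12 arrays in 1 fit, a filter on dim probe sets, array centring, quantile normalization, cyclic loess, an intensity trend, no moderation, a stricter adjusted p of 0.01 and an added fold of 1.5. With 1 array left out they ran from 6931 to 7519 higher in Hep3B and from 6831 to 7540 higher in SNU449, and at 4-fold or more from 1215 to 1246 and from 1198 to 1269. With 1 probe set per gene, which tests fewer features, they were 4225, 3831, 773 and 706. In the treated arrays the same setting gave 4399 higher in Hep3B, 3457 higher in SNU449, and 762 and 662 at 4-fold or more. The stricter adjusted p gave 4669 treated probe sets higher in SNU449, and leaving out 1 array gave 6965 to 8587 and 5513 to 7455 (4-fold 1260 to 1344 and 1071 to 1148).

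Deviations of same-numbered arrays from their line means correlated at 0.056, 0.213 and 0.024. Pairs with unlike numbers ran from -0.171 to 0.125, the highest being Hep3B replicate 3 with SNU449 replicate 1. The GAPDH excess fell from replicate 1 over 3 to 2 in both lines (1.514, 0.955 and 0.453 in Hep3B, 0.967, 0.721 and 0.343 in SNU449). Whether equal numbers share a batch was not tested. The replicate block gave 8033 and 8200 called probe sets and changed no count by 1.5 times. Of 473 named genes, 331 of them called, 20 lost their call in at least 1 setting and 15 when an array was left out, and 0 reversed. None of the 50 widest genes lost its call in these settings (0 of 50). Among the 35 list medians 0 of at least 0.1 in size reversed. Settings for the lists also included a restriction to genes above the array medians in a line and an average over probe sets. Over all settings the plasma protein median ran from 1.99 to 4.30 and that of drug metabolism from 0.05 to 0.73. That of bile acid genes and transporters ran from 0.04 to 1.57, and that of the urea cycle list from 0.36 to 1.41. Medians ran from 0.43 to 1.5 for epithelial genes, from 0.52 to 1.23 for oncofetal genes and from -1.95 to -0.85 for mesenchymal genes. They ran from -0.74 to -0.44 for actin genes and from -0.57 to -0.17 for matrix genes. For integrins the range was -0.29 to -0.11, and for receptor tyrosine kinases -0.55 to -0.17. The restriction keeps genes high in only 1 line and drops members dim in both, so it can widen a list median by itself. Of genes with several probe sets (10523), 413 had probe sets called in both directions.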

Other observations

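Lists outside the liver and mesenchymal programmes held single wide differences. Of 32 HOX and MEIS genes 8 were called higher in Hep3B and 6 higher in SNU449 (25% and 18.8%). These shares were near the 21.4% and 19.4% of all genes, and the median was 0.06. HOXC6 (2.35) and the cofactor MEIS2 (2.32) were the widest, both higher in Hep3B. Of 36 cancer-testis antigens 2 were called higher in Hep3B and 3 higher in SNU449 (5.56% and 8.33%), below the shares of all genes. In both lines 26 had means below every array median. MAGEA1, normally restricted to the testis, was at 3.90, 3.38 and 3.81 in Hep3B and at 9.04, 8.83 and 8.79 in SNU449, a difference of -5.19 ± 0.15 (SE). MAGEA6 was higher in Hep3B (1.52), and PRAME (0.27), which had low values in both lines, was not called. Of 30 imprinted genes 9 were called higher in Hep3B and 6 higher in SNU449 (30.0% and 20.0%, median 0.00). DLK1 (5.07), PEG3 (3.63) and MEST (2.40) were the widest higher in Hep3B, and TFPI2 (-5.01), PHLDA2 (-3.05) and ZDBF2 (-0.91) the widest higher in SNU449.

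Of 38 ribosomal protein genes 10 were called higher in Hep3B and 6 higher in SNU449 (26.3% and 15.8%), 0 of them at 4-fold, with a median of 0.05. Of 12 housekeeping genes 5 were called higher in Hep3B and 6 higher in SNU449 (41.7% and 50%), above the shares of all genes. The median was -0.13, and differences ran from PGK1 (-1.39) and SDHA (-1.37) to POLR2A (1.02). PPIA (0.12) was not called. ACTB differed by -0.50.

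Some stretches of neighbouring genes differed mostly in 1 direction. This was noticed in the data and is given without a test or a comparison with shuffled gene order. Among 8559 protein-coding genes with a mean above 6 in either line, ordered by their position in RefSeq, the median difference was taken over each of 8237 windows of 15 neighbouring genes. Genes high in only 1 line pass this limit, which can widen the medians, and adjacent windows share most of their genes. The middle of these medians was 0.06, and 5% lay below -0.84 and 5% above 0.92. The lowest was on chromosome 8 from LOXL2 to PBK (-2.21), where 14 of 15 genes were called higher in SNU449, among them BNIP3L (-3.58) and DPYSL2 (-4.09), and clusterin (CLU, 1.48) was the exception. A window on chromosome 1 from B3GALNT2 to ZBTB18 had a median of -2.19. It was mixed, with 9 of 15 genes called higher in SNU449 and 3 higher in Hep3B. One on chromosome 10 from NMT2 to PRTFDC1, which holds VIM, had a median of -1.89, with 10 and 1 called. The highest was on chromosome 11 from CHKA to DHCR7 (2.27), with 13 of 15 called higher in Hep3B. There CHKA (5.09), LRP5 (4.98), ANO1 (4.97), SHANK2 (3.59), DHCR7 (3.0), PPFIA1 (2.49) and FADD (1.74) were higher in Hep3B, while CCND1, which lies among them, was at 5.27, 5.56 and 5.80 in Hep3B and at 8.37, 8.97 and 9.05 in SNU449. A window on chromosome 4 from FGA to CPE (1.83) came next. DNA copy number was not measured here.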
